A study of Homo sapiens with 18 samples.

Results

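PCGF6-KO clone 1 was compared with wild type (WT) in RNA sequencing (RNA-seq) of PGP1 cells, an established human induced pluripotent stem cell line. The comparison used the 2 libraries of clone 1 and the 2 WT libraries, taken by their labels, which are 4 of the 6 RNA-seq libraries and 4 of the 18 samples of the series. The other samples were 2 libraries of the other clone, PCGF6-KO clone 2, used here only to ask which changes were seen in clone 1 and not in clone 2, and samples of other assays, not analysed here. All 57133 genes of the count table entered, and 17672 had enough counts to be tested.

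Both clones were made from PGP1 by CRISPR-Cas9 with a pair of guide RNAs that cut out a part of the first exon of PCGF6 on both alleles, and each was grown from a single cell. WT cells were unedited PGP1, and all cells were cultured as pluripotent stem cells in mTeSR1 on Matrigel. Clone 1 is 1 clone, so whatever else differs between it and the WT cells cannot be told apart from the loss of PCGF6. The labels do not say that the 2 libraries of a group came from separate cultures, so p-values measure only the spread between these libraries, which may be technical.

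PCGF6 is the subunit that defines PRC1.6, one of the variant forms of Polycomb repressive complex 1. These complexes hold the ubiquitin ligases RING1A or RING1B and lower transcription of the genes they occupy. In PRC1.6 the DNA-binding partners MGA and MAX recognise the E-box, E2F6 and its partner recognise E2F sites, and in mouse embryonic stem cells the complex is best known for keeping germ cell and meiosis genes silent. Pluripotent cells also hold most developmental regulators, such as the HOX genes, under Polycomb repression until they differentiate.

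The libraries held 15877396 to 18918609 counted reads, with the most in clone 1. For a gene with the median difference, the replicates of a group differed 1.06-fold for WT, 1.08-fold for clone 1 and 1.07-fold for clone 2, and the chi-square between replicates per degree of freedom was 2.4, 4.52 and 3.21, above the 1 of counting error alone. For PCGF6, the WT libraries gave 268 and 300 reads, clone 1 99 and 103, and clone 2 187 and 159. The counts of clone 1 did not overlap those of WT or of clone 2. The log2 fold change of clone 1 against WT was −1.67 (SE 0.14), with an adjusted p of 1.03e-10 by edgeR, and clone 1 stood 0.90 log2 below clone 2, with an adjusted p of 5.44e-05 by edgeR. The reads outside the deleted stretch are still counted, so the level of PCGF6 checks the labels and not the protein. PCGF6 overlaps another annotated gene, and the sources used here do not say whether strand was used in counting.

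The stem cell markers were retained in clone 1. POU5F1 was counted at 24295 and 25011 in WT libraries, against 31072 and 26989 for clone 1 and 27299 and 22722 for clone 2. LIN28A reads numbered 26953 and 29955 in the WT libraries, 24576 and 26536 in those of clone 1 and 25450 and 24039 in those of clone 2. Over these and NANOG, SOX2, DPPA4 and TDGF1, log2 fold changes lay between −0.41 and 0.44 and no marker was called. Of the markers that define differentiated cells, HBZ of blood had 0 counts in every library, and GATA1 of blood, SOX1 of neural cells and DDX4 of germ cells had at most 4. PAX6, another neural marker, was low but upregulated (log2 fold change 1.51 (SE 0.55)), moving from 2 and 9 WT reads to 19 and 17. The call of PAX6 was lost with DESeq2 (1.53). It was also lost without WT replicate 1 (0.83), clone 1 replicate 1 (1.47) or clone 1 replicate 2 (1.56). The markers of primitive streak rose steeply and are described with their list, whereas PECAM1 and CDH5 of vessels and DAZL of germ cells fell. Of the fibroblast markers, THY1 fell, and DCN and PDGFRB rose.

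Clone 1 had 4379 differentially expressed genes among the 17672 tested (24.8%), 2823 upregulated (16.0%) and 1556 downregulated (8.80%). A gene was called at an adjusted p under 0.05 by edgeR and an absolute log2 fold change over 0.6. Upregulated genes made up 64.5% of the calls, and their median log2 fold change was 1.55, against −1.07 for the downregulated genes and 0.00 for all tested genes. With genes put in 5 equal groups from the lowest to the highest mean level, 22.5%, 24.4%, 15.5%, 9.37% and 8.09% of genes were upregulated. By type, 15.7% of 14450 protein-coding genes and 22.1% of 765 lncRNA genes were upregulated.

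**Figure D1:**
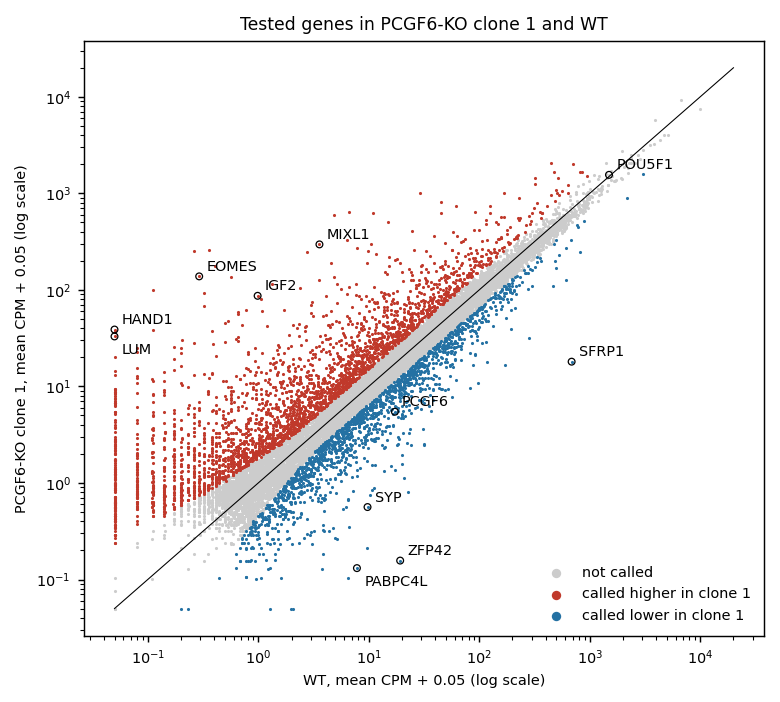
Each point is a tested gene outside chromosome Y. The horizontal axis gives the mean of 2 WT libraries and the vertical axis the mean of 2 clone 1 libraries, in CPM plus 0.05 on log scales, and the line marks equal levels. The 2823 upregulated genes spread far above the line, with many at 0 in WT along the left edge, and POU5F1 lies on it.

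In all, 131 genes outside chromosome Y were switched on in clone 1, meaning at most 3 counts in each WT library and at least 30 in each clone 1 library, and 115 of them were also on in clone 2. Only 4 were switched off by the reverse limits: ZFP42, PAX8-AS1, PABPC4L and ALKBH3. Among genes with a mean of at least 5 CPM in WT or clone 1, the largest increases by fitted log2 fold change, which for genes at 0 in WT depends on the prior count, were led by HAND1, a transcription factor of heart and extraembryonic mesoderm. For HAND1, the WT libraries gave 0 and 0 reads, clone 1 672 and 770, and clone 2 2012 and 1575. The increase in clone 1 was at least 213-fold, and the groups did not overlap. EVX1 was counted at 0 and 0 in WT libraries, against 714 and 642 for clone 1 and 1063 and 890 for clone 2. The increase of this homeobox gene of the posterior streak was at least 200-fold, and that of LUM, which encodes the matrix proteoglycan lumican, was at least 181-fold. Others among the 12 largest increases were the HOX-related genes HOXB2, HOXC6, HOXB3 and the HOXA lncRNA HOTAIRM1, with CDX1, WNT3A, the WNT-induced WISP1 and the lncRNA LINC01124. These had 0 counts in both WT libraries and were at least 47.3-fold to 111-fold higher. EVX1, LINC01124, HOTAIRM1 and the HOX genes overlap other annotated genes.

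The largest decreases at this level began with ZFP42, also called REX1, a zinc finger gene used as a marker of naive and ground-state pluripotency. ZFP42 reads numbered 304 and 329 in the WT libraries, 2 and 2 in those of clone 1 and 2 and 1 in those of clone 2. Clone 1 was 179-fold lower than WT and did not differ from clone 2 by a called amount. For SFRP1, the WT libraries gave 10494 and 12156 reads, clone 1 309 and 359, and clone 2 307 and 297. SFRP1 encodes a secreted WNT antagonist. Its log2 fold change was −5.26 (SE 0.09), with an adjusted p of 3.14e-25 by edgeR. SYP, which encodes the synaptic vesicle protein synaptophysin, went from 155 and 165 counts in WT to 7 and 12 in clone 1, and PLA2G4C, a phospholipase A2 gene, from 76 and 92 to 4 and 4. The other genes of the 12 largest decreases were PAX8-AS1, PABPC4L, TCEAL5, D21S2088E, PCDHGC3, TMEM151B, LINC01844 and SPTSSB. ZFP42, TCEAL5 and SPTSSB overlap no other annotated gene, and the others do.

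All 33 tested HOX genes, of 39 in the table, were upregulated in clone 1, where 16.0% of all tested genes were. HOX genes encode the homeodomain factors that give position along the body axis. In 25 of the 33 both WT libraries had 0 counts, and the median log2 fold change was 8.59 as fitted and 4.42 with those genes at their bound. Summed over the family, WT libraries reached 0.983 and 0.36 CPM, those of clone 1 reached 291 and 298 CPM, and those of clone 2 reached 416 and 391 CPM. HOXB2 was counted at 0 and 0 in WT libraries, against 376 and 376 for clone 1 and 344 and 274 for clone 2. Against clone 2, 17 of the 33 were lower in clone 1 and 1, HOXB1, was higher. A gene at 0 in WT could pass the filter on low counts only through the clones, so the count describes the members tested and not the family. Requiring 10 counts in every library removed the HOX genes, since WT was below it.

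The primitive streak is the region of the early embryo through which mesoderm and endoderm form. Of 12 tested genes of this list 11 were upregulated (91.7%) and FOXJ1 was downregulated (8.33%), against 16.0% and 8.80% of all tested genes. The median of their log2 fold changes was 7.64, or 6.03 with genes at 0 in WT at their bound. TBXT reads numbered 0 and 12 in the WT libraries, 3508 and 3065 in those of clone 1 and 5515 and 4636 in those of clone 2. For EOMES, the WT libraries gave 3 and 5 reads, clone 1 2630 and 2528, and clone 2 1615 and 1647. TBXT, or Brachyury, and EOMES are the T-box factors of the streak, and their log2 fold changes were 8.89 (SE 0.19) and 9.11 (SE 0.17). MIXL1 was counted at 70 and 46 in WT libraries, against 5518 and 5506 for clone 1 and 5918 and 5494 for clone 2. All clone 1 counts of these 3 genes lay above all WT counts. EOMES stood 0.53 log2 above clone 2, under the threshold of 0.6.

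Of 18 tested cardiac and lateral mesoderm genes 16 were upregulated and 0 downregulated, against 16.0% and 8.80% of all tested genes. Both WT libraries had 0 counts for 6 of the 18, as for 2 of the streak genes, and such genes could pass the filter only through the clones and be called only upward. The list summed to 196 and 193 CPM for WT, against 1640 and 1629 CPM for clone 1 and 2207 and 2132 CPM for clone 2. ACTC1 reads numbered 472 and 477 in the WT libraries, 19810 and 18028 in those of clone 1 and 26699 and 22177 in those of clone 2. For TBX3, the WT libraries gave 2 and 2 reads, clone 1 366 and 359, and clone 2 1149 and 981. ACTC1 encodes cardiac actin and TBX3 a transcription factor of the forming heart. KDR, a receptor of vascular growth factor found on early mesoderm, rose by 1.69 log2. NKX2-5 stayed at 5 and 6 counts in clone 1 against 0 in WT, and its call was lost without either WT library, with a log2 value of 5.41 both times. MYH6, of contractile heart muscle, had 5 and 4 WT counts against 11 and 13 for clone 1 and was not called. TNNT2, the other cardiac marker, had 106 and 97 WT counts, against 228 and 203 for clone 1 and 244 and 220 for clone 2.

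Presomitic mesoderm and somite genes were upregulated in 10 of 13 tested (76.9%) and downregulated in 1 (7.69%), against 16.0% and 8.80% of all tested genes. MSGN1 was counted at 0 and 0 in WT libraries, against 37 and 22 for clone 1 and 155 and 93 for clone 2. PAX3 reads numbered 2 and 0 in the WT libraries, 204 and 217 in those of clone 1 and 298 and 297 in those of clone 2. MSGN1 is a factor of the presomitic mesoderm and PAX3 of the somite and neural crest. Both were higher still in clone 2, MSGN1 by 2.19 log2 and PAX3 by 0.63. RIPPLY2, a somite boundary gene, was called lower (log2 fold change −1.45 (SE 0.57)), and this call was lost whichever of the 6 libraries was left out, with values from −1.62 to −1.27. Definitive endoderm genes were upregulated in 8 of 12 tested (66.7%), and KIT was downregulated (8.33%). Both WT libraries had 0 counts for 2 of the 12 and for 1 of the 13 presomitic genes. Such genes could be called only upward. For SOX17, the WT libraries gave 0 and 0 reads, clone 1 47 and 33, and clone 2 46 and 45. GATA6 was counted at 2 and 0 in WT libraries, against 168 and 142 for clone 1 and 434 and 292 for clone 2. FOXA2 moved from 7 and 5 to 14 and 22 counts, and its call was lost without clone 1 replicate 2 (log2 fold change 1.00), WT replicate 1 (1.66) or WT replicate 2 (1.16). Where 10 counts were required in every library, the upregulated genes were 4 for the streak, 6 for cardiac, 3 for presomitic and 2 for endoderm.

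Blood and vessel genes were divided, with 5 of 16 upregulated (31.2%) and 4 downregulated (25%), against 16.0% and 8.80% of all tested genes. GATA2, RUNX1, FLI1, ESAM and SOX18 rose, and PECAM1, CDH5, TIE1 and ERG fell, with genes expressed in endothelium on both sides. Where 10 counts were required in every library, 1 was upregulated and 2 were downregulated. GATA2 reads numbered 7 and 9 in the WT libraries, 102 and 94 in those of clone 1 and 254 and 253 in those of clone 2. For PECAM1, the WT libraries gave 19 and 28 reads, clone 1 6 and 6, and clone 2 16 and 17. The call of CDH5 was lost without WT replicate 1 (log2 fold change −1.11). In bulk RNA, fewer cells of a type and less RNA per cell cannot be told apart.

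WNT pathway genes were upregulated in 32 of 67 tested (47.8%) and downregulated in 6 (8.96%), with a median log2 fold change of 0.55. Of all tested genes, 16.0% were upregulated and 8.80% downregulated, so the downregulated share is near that of all genes. Requiring 10 counts in every library left 18 upregulated. The ligand genes that rose were WNT3, WNT3A, WNT5A, WNT5B, WNT8A, WNT9A, WNT10B and WNT11. WNT3A was counted at 0 and 0 in WT libraries, against 196 and 147 for clone 1 and 196 and 146 for clone 2. WNT5B reads numbered 2 and 7 in the WT libraries, 1350 and 1169 in those of clone 1 and 1667 and 1498 in those of clone 2. LEF1, a nuclear partner of beta-catenin, and NKD1, a feedback inhibitor, had log2 fold changes of 6.32 (SE 0.14) and 3.47 (SE 0.08). WLS, which carries WNT ligands to the cell surface, went from 52 and 37 counts in WT to 4806 and 4465 in clone 1. Besides SFRP1, the repressive TCF7L1 and the receptor FZD5 fell, by 1.56 and 1.71 log2. KREMEN2, a DKK receptor gene, and WIF1, a secreted inhibitor, were upregulated in clone 1 and not called in clone 2, with called differences of 1.09 and 1.04 log2 between the clones. The call of WIF1 against WT was lost without clone 1 replicate 2 (0.76) or WT replicate 1 (0.68).

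NODAL, TGF-beta and BMP genes were upregulated in 26 of 45 tested and downregulated in 2, or 1 without clone 1 replicate 1, when the call of INHBE was lost at a log2 fold change of −0.52. With all libraries the shares were 57.8% upregulated and 4.44% downregulated, against 16.0% and 8.80% of all tested genes. For NODAL, the WT libraries gave 285 and 277 reads, clone 1 3996 and 3562, and clone 2 4764 and 4077. GREM1 was counted at 17 and 17 in WT libraries, against 1104 and 1146 for clone 1 and 1546 and 1514 for clone 2. NODAL is a ligand that induces the streak, and GREM1 is a secreted BMP antagonist. The BMP target ID2 had a log2 fold change of 3.31 (SE 0.08) and the activin antagonist FST of 4.83 (SE 0.09). TGFBR2, the type II receptor of TGF-beta, fell by 0.72 log2. BMPR1B, a BMP receptor gene, was the member upregulated in clone 1, not called in clone 2 and called between them (0.76 log2).

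FGF and ERK feedback genes were upregulated in 16 of 32 tested (50%) and downregulated in 5 (15.6%), against 16.0% and 8.80% of all tested genes. FGF8 reads numbered 46 and 40 in the WT libraries, 856 and 687 in those of clone 1 and 1000 and 820 in those of clone 2. For FGFR3, the WT libraries gave 234 and 221 reads, clone 1 1846 and 1597, and clone 2 1564 and 1292. FGF8 is a ligand of the streak and FGFR3 an FGF receptor, and the ligand FGF4 had a log2 fold change of 4.10 (SE 0.17). The feedback genes split: SPRY4 rose by 1.16 log2, and DUSP6, the ERK phosphatase, fell by 1.04. Of the 5 downregulated genes, 2 or 3 remained called when clone 1 replicate 1 or either WT library was left out. Without WT replicate 2, ETV5 was at −0.55, and FGF11 was at −0.93 and without clone 1 replicate 1 at −0.75.

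Genes of epithelial and mesenchymal transition were upregulated in 13 of 22 tested (59.1%) and downregulated in 2 (9.09%), against 16.0% and 8.80% of all tested genes. ZEB2 was counted at 3 and 8 in WT libraries, against 672 and 734 for clone 1 and 1005 and 869 for clone 2. VIM reads numbered 750 and 879 in the WT libraries, 5850 and 5518 in those of clone 1 and 8827 and 7056 in those of clone 2. VIM, the mesenchymal intermediate filament, rose by 2.63 log2 and CDH2, or N-cadherin, by 2.51. ZEB2 is a repressor of epithelial genes, and GRHL2, an epithelial transcription factor, fell by 0.80 log2. Collagen genes were upregulated in 24 of 40 tested (60%) and downregulated in 3 (7.5%). The downregulated shares of both lists are near that of all tested genes. For COL3A1, the WT libraries gave 6 and 1 reads, clone 1 4601 and 4769, and clone 2 7977 and 6886. COL1A1 and COL1A2, the chains of type I collagen, rose by 2.57 and 2.06 log2. Fibroblast genes were upregulated in 7 of 9 tested (77.8%), with THY1 downregulated. Amnion, trophoblast and surface ectoderm genes were upregulated in 6 of 9 (66.7%) and neural crest genes in 8 of 12 (66.7%), with ETS1 downregulated. GATA3 was counted at 15 and 11 in WT libraries, against 300 and 240 for clone 1 and 468 and 386 for clone 2. TFAP2A reads numbered 6 and 5 in the WT libraries, 276 and 237 in those of clone 1 and 294 and 272 in those of clone 2. These 2 factors serve amnion, trophoblast and surface ectoderm alike, and CGA of trophoblast had at most 9 counts in any library.

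Synaptic genes moved the other way. Of 85 tested, 38 were downregulated, where 8.80% of all tested genes were, and 9 were upregulated, with a median log2 fold change of −0.55. The list summed to 2054 and 2043 CPM for WT, against 1368 and 1378 CPM for clone 1 and 1267 and 1325 CPM for clone 2. For SYP, the WT libraries gave 155 and 165 reads, clone 1 7 and 12, and clone 2 7 and 4. GRIA4 was counted at 327 and 332 in WT libraries, against 34 and 23 for clone 1 and 23 and 15 for clone 2. GRIA4 encodes an AMPA receptor subunit. UNC13A, of vesicle priming, and NLGN3, a postsynaptic adhesion molecule, fell by 1.65 and 2.09 log2. SYT11 reads numbered 607 and 607 in the WT libraries, 105 and 101 in those of clone 1 and 294 and 305 in those of clone 2. SYT11, a synaptotagmin gene, fell by 2.74 log2 in clone 1, further than in clone 2 by 1.67. Neural transcription factors and markers were split, with 11 of 21 upregulated (2 with at least 10 counts in every library), among them GBX2 (5.96), EMX2 (4.73) and ZIC1 (3.31), and 5 downregulated, among them HESX1 (−3.48) and POU3F1 (−1.89). ELAVL4, a neuronal RNA-binding protein gene, was upregulated in clone 1 and not called in clone 2, and the clones differed by 1.46 log2. Of 53 clustered protocadherin genes 14 were downregulated (26.4%) and 7 upregulated (13.2%), against 8.80% and 16.0% of all tested genes.

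Pluripotency genes were upregulated in 8 of 34 tested (23.5%) and downregulated in 9 (26.5%), against 16.0% and 8.80% of all tested genes. Genes that rose included FGF4, NODAL, KLF5, LEFTY2, GDF3, DPPA2 and MYC, and ZFP42, FOXD3, DPPA3, ESRRB, OTX2, PRDM14, SALL2, ZIC2 and DNMT3B fell. For SOX2, the WT libraries gave 5321 and 5460 reads, clone 1 4711 and 4461, and clone 2 2777 and 2658. SOX2 had a log2 fold change of −0.41 (SE 0.06) in clone 1, which was not called, and −1.04 in clone 2, and the difference of 0.63 between the clones was called at an adjusted p of 1.33e-08 by edgeR. Summed over the list, WT libraries reached 13707 and 14236 CPM, those of clone 1 reached 11998 and 12089 CPM, and those of clone 2 reached 11008 and 11355 CPM.

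Besides PCGF6, 1 of the 17 PRC1.6 genes was called, YAF2, which encodes the partner of RING1 proteins related to RYBP. YAF2 was counted at 31 and 23 in WT libraries, against 210 and 209 for clone 1 and 145 and 150 for clone 2. Its log2 fold change was 2.77 (SE 0.20). The others lay between −0.58 for TFDP2 and 0.55 for E2F6, and without WT replicate 1 TFDP2 passed as downregulated at −0.61. Of 32 other Polycomb genes 7 were upregulated (21.9%) and 5 downregulated (15.6%), against 16.0% and 8.80% of all tested genes. EPOP, a PRC2 accessory factor, rose from 22 and 7 to 442 and 485 counts, and BMI1, which encodes PCGF4, from 50 and 51 to 156 and 200, whereas CBX2 and PHC1 of canonical PRC1 fell by 0.89 and 0.80 log2.

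Germ cell and meiosis genes were upregulated in 9 of 25 tested (36%) and downregulated in 2 (8%), and the median log2 fold change was 0.10. Of all tested genes, 16.0% were upregulated and 8.80% downregulated, so the downregulated share is near that of all genes. A further 28 of the 53 in the table were too low to test. With DESeq2, 5 were upregulated, and 3 upregulated and 1 downregulated genes were left where every library needed 10 counts. MEI4 reads numbered 7 and 10 in the WT libraries, 41 and 37 in those of clone 1 and 51 and 31 in those of clone 2. MEI4 is needed for the DNA breaks that start meiotic recombination. For DAZL, the WT libraries gave 94 and 111 reads, clone 1 24 and 20, and clone 2 14 and 19. DAZL, an RNA-binding protein of germ cells, fell in both clones. Of the 9 upregulated genes, 4 were not called in clone 2 and were called higher in clone 1 by the direct comparison: MEIOB, SYCP2, CPEB1 and TDRD7. Among all tested genes, 0.690% were of this class. MEIOB was counted at 9 and 6 in WT libraries, against 53 and 87 for clone 1 and 11 and 17 for clone 2. SYCP2 reads numbered 9 and 13 in the WT libraries, 44 and 51 in those of clone 1 and 20 and 21 in those of clone 2. The differences between the clones were 2.19 log2 for MEIOB, 1.08 for SYCP2, 0.96 for CPEB1 and 0.74 for TDRD7. The call of CPEB1 against WT was lost without clone 1 replicate 2 (0.91) or WT replicate 1 (0.96). MEIOB acts in meiotic recombination and SYCP2 in the chromosome axis. In the other direction, TDRD1, REC8 and PIWIL2 were lower in clone 1 than in clone 2, TDRD1 by 1.69 log2, and none of these was called in clone 1 against WT. Of 6 tested cancer-testis genes, MAGEB17 and MAGEB3 were upregulated (33.3%, against 16.0% of all tested genes).

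Imprinted genes were upregulated in 8 of 26 tested (30.8%) and downregulated in 4 (15.4%), against 16.0% and 8.80% of all tested genes. For IGF2, the WT libraries gave 11 and 20 reads, clone 1 1606 and 1628, and clone 2 3462 and 3220. PLAGL1 was counted at 51 and 36 in WT libraries, against 579 and 535 for clone 1 and 683 and 571 for clone 2. IGF2 encodes a fetal growth factor and was 1.17 log2 lower in clone 1 than in clone 2, and PLAGL1 is a zinc finger gene of the same imprinted growth network. NNAT reads numbered 889 and 884 in the WT libraries, 548 and 512 in those of clone 1 and 1049 and 830 in those of clone 2. NNAT, an imprinted gene of neural tissue, was downregulated in clone 1 and not called in clone 2. SLC22A18 was upregulated in clone 1 and not called in clone 2, with a difference of 1.26 log2.

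The remaining lists cover growth control and metabolism, and their counts stand against 16.0% of all tested genes upregulated and 8.80% downregulated. Cell cycle genes were upregulated in 7 of 36 tested and downregulated in 2, or 1 without WT replicate 1, when E2F7 was at −0.60. For CDKN2B, the WT libraries gave 0 and 2 reads, clone 1 231 and 217, and clone 2 353 and 354. CCND1 was counted at 1878 and 1945 in WT libraries, against 9628 and 10103 for clone 1 and 10645 and 9796 for clone 2. CDKN2B encodes the CDK inhibitor p15 and CCND1 cyclin D1. CDKN1A, which encodes p21, rose from 1 and 4 WT counts to 15 and 17 counts in clone 1, and its call was lost without WT replicate 1 (log2 fold change 1.81). The share upregulated was 19.4% of cell cycle genes. Of 19 p53 target genes 4 were upregulated (21.1%) and 0 downregulated, and BTG2, an antiproliferative gene, rose by 2.63 log2. Integrated stress response genes were upregulated in 7 of 19, the amino acid transporter gene SLC7A5 by 2.19 log2. Glycolysis genes were upregulated in 4 of 20 (20%) with SLC2A1, the glucose transporter, at 1.20, and 1, ALDOA, was downregulated at −0.65, a call lost without clone 1 replicate 2 (−0.57) or WT replicate 2 (−0.59). Interferon-stimulated and MHC class I genes had 5 of 29 upregulated and 5 downregulated (17.2% each), and circadian genes 5 of 17 (29.4%) and 1 (5.88%). The upregulated shares of the cell cycle, p53, glycolysis and interferon lists are near that of all tested genes and are no result about their members. The downregulated circadian gene was BHLHE41, whose call was lost without clone 1 replicate 1 or WT replicate 1, at −0.90 both times. No gene of the respiratory chain was called among 62 tested, and their median was −0.09.

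Clone 2, compared with the same WT libraries, had 2983 upregulated (16.9%) and 2214 downregulated genes (12.5%). Because the WT libraries are shared, a change of WT itself appears in both clones, so the number of calls that both clones hold is no measure of agreement. Of the 4379 genes called in clone 1, 712 (16.3%) were not called in clone 2. Of the 712, 178 (25%) were also called in the direct comparison of clone 1 with clone 2, with clone 1 on the same side, and the rest were not shown to differ between the clones. These were 122 upregulated (0.690% of tested genes) and 56 downregulated (0.317%). A further 34 genes were called in opposite directions, 18 upregulated in clone 1 (0.102%) and 16 downregulated in clone 1 (0.0905%). Over all tested genes, the clones differed in 1390 (7.87%), of which 731 were higher in clone 1 (4.14%) and 659 lower (3.73%). Where both clones were upregulated and differed, clone 2 was further from WT in 382 genes and clone 1 in 55, and where both were downregulated, clone 2 was further in 152 and clone 1 in 23.

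Among genes upregulated in clone 1, not called in clone 2 and different between the clones, and with a mean of at least 5 CPM in 1 of the 3 groups, CR1L had the widest difference. ZNF441, described with its cluster, lay below that level. CR1L reads numbered 3 and 5 in the WT libraries, 97 and 113 in those of clone 1 and 2 and 1 in those of clone 2. This complement receptor gene of chromosome 1 was 23.3-fold higher in clone 1 than in WT and 5.89 log2 above clone 2, with an adjusted p of 3.09e-10 by edgeR, and it overlaps other annotated genes. For BOLA2B, the WT libraries gave 8 and 9 reads, clone 1 239 and 15, and clone 2 6 and 5. BOLA2B rested on clone 1 replicate 1 and has near-identical copies, so its reads are uncertain, and without that replicate its log2 fold change was 0.67 and was not called. GRPR was counted at 129 and 111 in WT libraries, against 307 and 233 for clone 1 and 109 and 78 for clone 2. ZNF555, a zinc finger gene, had a log2 fold change of 1.69 (SE 0.24) and stood 1.80 log2 above clone 2, and GRPR encodes the gastrin-releasing peptide receptor. The remaining 8 of the 12 widest at this level were ERV3-1, PLEKHG4, CGREF1, ZNF117, BRICD5, ACTN2, C16orf89 and ICAM1, with differences from clone 2 between 1.15 and 1.39 log2. ICAM1 reads numbered 154 and 150 in the WT libraries, 411 and 375 in those of clone 1 and 178 and 146 in those of clone 2. ICAM1 is an adhesion molecule of leukocyte binding, and its clone 1 counts lay above those of the other groups. The call of BRICD5 against WT was lost without clone 1 replicate 1 (0.60) and that of ACTN2 with DESeq2 (0.86).

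Among the downregulated genes of this kind and level, MNS1 had the widest difference. For MNS1, the WT libraries gave 104 and 100 reads, clone 1 11 and 8, and clone 2 149 and 144. MNS1, a gene of cilia and sperm flagella on chromosome 15 from 56421544 to 56465137, was 12.2-fold lower in clone 1 than in WT and 4.06 log2 below clone 2, with an adjusted p of 1.01e-11 by edgeR. NSMCE1 was counted at 146 and 183 in WT libraries, against 69 and 61 for clone 1 and 269 and 174 for clone 2. NSMCE1, a subunit of the SMC5/6 complex, had clone 1 counts below those of both other groups. Others of the 12 were FAM157C, TRIM4, ASAP2, HPS3, NETO1, HSD17B7, MCHR1, ZDHHC4 and NNAT, with differences between −1.43 and −0.95 log2. The call of MCHR1 against WT was lost without clone 1 replicate 2 (−0.51).

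Several genes were low or off in clone 1 and higher than WT in clone 2. PABPC4L reads numbered 129 and 127 in the WT libraries, 1 and 2 in those of clone 1 and 479 and 455 in those of clone 2. PABPC4L, a gene of the poly(A)-binding protein family on chromosome 4 from 134196333 to 134201789, was 95.7-fold (95% counting interval 32.7 to 471) lower in clone 1 than in WT. For ALKBH3, the WT libraries gave 51 and 72 reads, clone 1 2 and 1, and clone 2 124 and 109. ALKBH3, whose product removes alkyl groups from DNA and RNA, lies on chromosome 11 from 43880811 to 43920274. These were the 2 genes switched off in clone 1 alone, and at limits of 5 and 50 counts there were 4. VPS37B was counted at 79 and 81 in WT libraries, against 2 and 6 for clone 1 and 619 and 588 for clone 2. VPS37B, on chromosome 12 from 122865330 to 122896127, encodes a subunit of the ESCRT-I complex of endosomal sorting. PCDHGC3 reads numbered 111 and 104 in the WT libraries, 3 and 8 in those of clone 1 and 247 and 241 in those of clone 2. For CSRP1, the WT libraries gave 255 and 299 reads, clone 1 129 and 159, and clone 2 3309 and 2732. PCDHGC3 shares exons with the rest of the protocadherin gamma cluster, and CSRP1 encodes a LIM domain protein of smooth muscle. In each of these 5 genes the clone 1 counts lay below all WT counts and the clone 2 counts above them, and the changes of the clones against WT were called in opposite directions. TCEAL5, on chromosome X, fell from 157 and 159 counts in WT to 4 and 2 in clone 1 and had 116 and 86 in clone 2, where it was called lower as well.

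The reference promoters of 4 switched genes, with those of VPS37B and MNS1, are shown because the PRC1.6 partners read DNA motifs, and because these genes had at most 11 counts in each library of clone 1 or, for ZNF441, 0 in WT. They were chosen after the values were seen. The sequences come from RefSeq on GRCh38.p14 and run from 250 bases before the start of the gene to 50 after it, on the strand of the gene. Capitals mark CACGTG, the E-box bound by MAX and MGA, and TCCCGC or GCGGGA, the E2F core on either strand.
ZFP42, chr4:187995521-187995820 (plus strand): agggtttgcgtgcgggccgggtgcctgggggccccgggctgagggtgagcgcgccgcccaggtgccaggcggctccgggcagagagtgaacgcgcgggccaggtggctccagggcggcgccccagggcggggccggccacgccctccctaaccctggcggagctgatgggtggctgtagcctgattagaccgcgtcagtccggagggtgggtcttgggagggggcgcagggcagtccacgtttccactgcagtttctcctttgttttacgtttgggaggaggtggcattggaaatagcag
PABPC4L, chr4:134201740-134202039 (minus strand): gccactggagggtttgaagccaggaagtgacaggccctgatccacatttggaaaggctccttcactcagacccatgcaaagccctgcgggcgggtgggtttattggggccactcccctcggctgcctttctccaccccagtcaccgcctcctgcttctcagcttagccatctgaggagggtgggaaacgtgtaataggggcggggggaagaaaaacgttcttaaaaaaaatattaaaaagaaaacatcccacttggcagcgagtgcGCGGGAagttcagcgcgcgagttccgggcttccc
ALKBH3, chr11:43880581-43880880 (plus strand): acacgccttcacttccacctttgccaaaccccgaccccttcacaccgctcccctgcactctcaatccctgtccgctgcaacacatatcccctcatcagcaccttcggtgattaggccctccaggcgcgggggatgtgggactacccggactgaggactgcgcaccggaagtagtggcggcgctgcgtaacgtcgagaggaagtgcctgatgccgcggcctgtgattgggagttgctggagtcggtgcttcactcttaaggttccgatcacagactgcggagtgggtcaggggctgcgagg
VPS37B, chr12:122896075-122896374 (minus strand): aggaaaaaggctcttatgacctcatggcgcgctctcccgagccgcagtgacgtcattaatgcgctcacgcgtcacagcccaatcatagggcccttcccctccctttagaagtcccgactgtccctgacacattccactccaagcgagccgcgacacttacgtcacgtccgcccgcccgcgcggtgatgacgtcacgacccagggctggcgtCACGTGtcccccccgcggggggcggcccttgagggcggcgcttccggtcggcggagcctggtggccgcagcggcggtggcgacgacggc
MNS1, chr15:56465088-56465387 (minus strand): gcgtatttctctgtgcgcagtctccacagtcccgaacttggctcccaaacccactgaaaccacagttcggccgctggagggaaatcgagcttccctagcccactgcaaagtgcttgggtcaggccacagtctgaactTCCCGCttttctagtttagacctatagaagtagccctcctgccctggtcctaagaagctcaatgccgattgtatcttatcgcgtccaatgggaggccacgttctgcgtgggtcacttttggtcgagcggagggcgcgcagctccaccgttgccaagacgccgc
ZNF441, chr19:11766750-11767049 (plus strand): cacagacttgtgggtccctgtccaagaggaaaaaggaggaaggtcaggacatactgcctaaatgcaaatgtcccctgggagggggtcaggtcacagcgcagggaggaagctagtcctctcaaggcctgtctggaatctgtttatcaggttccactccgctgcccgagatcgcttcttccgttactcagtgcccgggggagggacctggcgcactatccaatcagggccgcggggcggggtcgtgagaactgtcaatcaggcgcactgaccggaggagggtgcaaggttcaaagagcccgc
Of these 6 windows, that of VPS37B held 1 E-box, those of PABPC4L and MNS1 held 1 E2F core each, and the other 3 held neither. They contained 14 (PABPC4L and ZNF441) to 37 (VPS37B) CG dinucleotides, where 12238 tested genes with a reference promoter had a median of 26. The E-box was in 8.25% of promoters of upregulated genes, 9.61% of those of downregulated genes, 10% of those of genes not called and 7.43% of all 27305 reference promoters. The E2F core was in 37.4%, 39.7%, 42% and 26.8%. A match of letters is no evidence that a factor binds there.

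ZNF441 was the 1 gene switched on in clone 1 alone, a zinc finger gene on chromosome 19 from 11767000 to 11784078. ZNF441 was counted at 0 and 0 in WT libraries, against 39 and 36 for clone 1 and 0 and 0 for clone 2. It was at least 11-fold higher than WT, and at limits of 5 and 50 counts 2 genes were switched on in clone 1 alone. ZNF441 lies in a row of neighbours that moved together, which was singled out after the values were seen. Of the 17 tested genes from ZNF823 to ZNF443, at 11721265 to 12441021 of chromosome 19 on GRCh38, 13 were upregulated in clone 1 and 0 downregulated. Summed over the cluster, WT libraries held 833 and 863 counts, those of clone 1 2079 and 1919 and those of clone 2 171 and 187. In clone 2, 15 of the 17 were downregulated and 11 had 0 counts in both libraries. ZNF440 reads numbered 19 and 34 in the WT libraries, 202 and 196 in those of clone 1 and 0 and 0 in those of clone 2. For ZNF700, the WT libraries gave 30 and 32 reads, clone 1 250 and 191, and clone 2 0 and 0. ZNF563 was counted at 4 and 2 in WT libraries, against 54 and 65 for clone 1 and 0 and 0 for clone 2. These are genes of C2H2 zinc finger proteins, a family of DNA-binding factors many of which act as repressors. ZNF788P, ZNF625, ZNF136 and ZNF443 were not called in clone 1, with log2 fold changes of −0.01, −0.73, 0.01 and 0.46. The rise in clone 1 ended on either side. Of the 5 tested genes before ZNF823 and the 5 after ZNF443, 1, ACP5, was called in clone 1. ACP5 was downregulated in both clones. In clone 2, ZNF791 and MAN2B1, which lie after ZNF443, were downregulated as well, so there the fall did not end at ZNF443.

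Another row of neighbours lay on chromosome 7, from ZNF107 to ERV3-1 at 64666099 to 65006743. All 6 tested genes were upregulated in clone 1, none was called in clone 2, and all 6 were called higher in clone 1 than in clone 2. Their median log2 fold change was 0.88 in clone 1 and −0.38 in clone 2. In clone 2, ZNF117 was at −0.57 and ERV3-1 at −0.52, with adjusted p of 9.98e-05 and 0.00479 by edgeR, under the threshold of 0.6. ZNF138 was at 0.07 in clone 2. ZNF107 reads numbered 601 and 654 in the WT libraries, 1534 and 1530 in those of clone 1 and 654 and 611 in those of clone 2. For ZNF138, the WT libraries gave 244 and 271 reads, clone 1 528 and 546, and clone 2 293 and 268. ZNF273 was counted at 345 and 388 in WT libraries, against 692 and 674 for clone 1 and 336 and 308 for clone 2. ZNF117 and ERV3-1, an endogenous retroviral envelope gene, rose by 0.75 and 0.87 log2, and they overlap each other, so their reads may be shared. BNIP3P11 is a pseudogene inside ZNF107. ZNF680 reads numbered 28 and 39 in the WT libraries, 0 and 0 in those of clone 1 and 0 and 0 in those of clone 2. ZNF680, the next tested gene before ZNF107, had 0 counts in both clones. In windows of 8 neighbouring tested genes, 6 or more were upregulated in clone 1, not in clone 2, and higher in clone 1 than in clone 2 in 9 of 15725 windows, all on chromosomes 19 and 7. Genes called lower in clone 2 were among those counted. For genes downregulated in clone 1 no window held more than 2. Over the whole family, 63 of 477 tested ZNF genes were upregulated in clone 1 (13.2%) and 15 downregulated (3.14%). Both shares were below the 16.0% and 8.80% of all tested genes. Clone 1 exceeded clone 2 in 34 of the 477 and lay under it in 10, where 4.14% and 3.73% of all tested genes did. ZNF genes of the 2 clusters are among the 34. Clone 1 exceeded clone 2 in 16 of the 17 chromosome 19 genes and in all 6 on chromosome 7, 4 of them ZNF genes.

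The cytosolic ribosomal protein genes made a small shift in clone 1. None of the 80 was called, since the largest change was −0.53, but 61 were lower in clone 1 than in WT at an adjusted p under 0.05 by edgeR with any fold change, where 21.1% of all tested genes were, and 0 were higher. Their median log2 fold change was −0.25 in clone 1 and −0.01 in clone 2, against 0.00 for all tested genes in both. They summed to 46094 and 44403 CPM for WT, 39273 and 36471 CPM for clone 1, and 46692 and 43898 CPM for clone 2, so clone 1 lay below the other groups. In the direct comparison, 62 of the 80 were lower in clone 1 than in clone 2 at an adjusted p under 0.05 by edgeR (10.7% of all tested genes) and 0 were higher. Without 1 library at a time the count against WT was 42 to 65 of 80, lowest without WT replicate 1. These genes have many processed pseudogenes with near-identical sequence, so how reads were shared among copies bears on their counts.

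By chromosome, the tested genes of clone 1 centred near 0. The median log2 fold change of tested genes by autosome and X lay between −0.04 for chromosome X and 0.07 for chromosomes 8 and 10. The share of upregulated genes ran from 10.1% on chromosome 22 to 23.8% on chromosome 21, which had 160 tested genes. Of the 122 genes upregulated in clone 1, not called either way in clone 2 and called between the clones, chromosome 19 held 12. Chromosomes 1 and 7 held 11 each and chromosome 16 held 10. Genes downregulated in clone 2 are left out of this count, and they include most of the chromosome 19 cluster.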

How the data were processed

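RNA-seq reads were trimmed with Trim Galore (0.6.2), aligned to GRCh38 with HISAT2 (2.1.0) and counted per gene with featureCounts by the authors, per the submitters' processing notes and the paper's methods. The deposited values are raw read counts. Strand setting, multi-mapped reads and annotation release are not given in the sources used here. Libraries held 15877396 to 18918609 counts, so precision is lowest for genes with few counts, and intervals cover counting error only.

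Genes were filtered with filterByExpr, libraries scaled by TMM, and 1 quasi-likelihood model with 3 groups (edgeR 4.0.16 and limma 3.58.1, run in R 4.3.3) was fitted to all 6 libraries (3 residual degrees of freedom, common biological coefficient of variation 0.0524). Its contrasts compared clone 1 with WT, clone 2 with WT and clone 1 with clone 2, with Benjamini-Hochberg adjustment over all 17672 genes, and every adjusted p is from this test. SE is the absolute log2 fold change over the square root of F. Fold changes given as a multiple are ratios of mean CPM, counts scaled to the effective library size. Against a group at 0, they are bounds computed with 3 counts in each library. Medians of lists with bounds use the same 3 counts. Ratios against a group with 1 to 3 counts in all have exact 95% intervals.

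The comparison, the 32 gene lists and the markers were chosen with earlier results of these data known. Named genes were PCGF6, the markers, the 12 largest changes each way at 5 CPM or more, the 12 widest clone 1 differences and 5 opposite changes each way at the same level, up to 4 called members of each list each way by p, and genes switched in clone 1 alone. The zinc finger clusters, their neighbours, members of small classes and the ends of ranges were named after their values were seen. Genes of chromosome Y were not reported singly. A few genes that these rules name are not reported here.

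Gene symbols were matched to GENCODE 44 on GRCh38 (36219 genes) or by a RefSeq synonym (873). Promoters and motif counts came from RefSeq on GRCh38.p14. On simulated counts with 400 changed genes, the fit of 17448 genes recovered 391 and called 18 others in the comparison of clone 1 with WT. These numbers hold for the simulated counts only. Recovery at the levels and fold changes of the measured libraries was not tested. Alternatives were DESeq2 (1.42.0), other scalings, filters and thresholds, the replicate block and leaving out each library.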

Additional observations from a re-analysis of the deposited data

Results flagged for a closer look

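The change against WT differed between clone 1 and clone 2 in 1390 genes, by the direct comparison of the clones with edgeR. Among genes called in opposite directions in the clones and with a mean of at least 5 CPM in 1 of the 3 groups, the widest differences of clone 1 above clone 2 were those of ZNF700 (10.68 on the log2 scale), ZNF440 (10.54), ZNF69 (9.87), ZNF44 (9.86) and ZNF433-AS1 (9.50), all of the chromosome 19 zinc finger cluster and all at 0 counts in both libraries of clone 2. Their fitted values therefore depend on the prior count of the fit and are no bound. The widest differences of clone 1 below clone 2 were those of PABPC4L (−8.29), VPS37B (−7.32), ALKBH3 (−6.28), PCDHGC3 (−5.57) and CSRP1 (−4.51), where clone 1 had between 1 and 159 counts. With 2 libraries in a group, no library could be tested for standing apart from the others of its group.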

How the results depend on the processing

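With 2 libraries a group, low genes limit what could be called. In every alternative fit, 0 genes called in clone 1 were called in the other direction. Counts of genes called in clone 1 ranged from 4068 to 4458 with 1 library left out, and were 4420 with the replicate block. Libraries with the same number deviated together little (Pearson's r across 13420 genes, which are not independent, of 0.0745 and 0.0746 between WT and each clone and 0.181 between the clones), so the numbers were not taken to pair the libraries. The replicate block moved no count by more than 1.5 times.

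With an adjusted p under 0.05 alone, 8002 genes were called in clone 1 (4266 higher, 3736 lower), 8904 in clone 2 (4629 higher, 4275 lower) and 3442 between the clones (1559 higher in clone 1, 1883 lower), 1503 were called in clone 1 and not in clone 2, and 245 higher and 275 lower genes of these had a called difference. With a test against a fold change of 1.5, 876 genes were lower in clone 1 and 1409 in clone 2, 403 differed between the clones (191 higher, 212 lower), 401 were called in clone 1 and not in clone 2, and 34 higher and 25 lower genes of these had a called difference. With a fold over 1.5 and an unadjusted p, 93 lower genes of this kind had one. DESeq2 called 810 genes between the clones (403 higher, 407 lower) and left 61 higher and 31 lower genes seen in clone 1 and not in clone 2 with a called difference. With at least 10 counts in every library, 382 genes were lower in clone 1 than in clone 2 and 1 gene of the chromosome 19 cluster was called higher, since genes at 0 in clone 2 were no longer tested. That filter also left fewer upregulated members of the fibroblast (3), neural crest (4), p53 target (2) and cancer-testis (0) lists. Without 1 library, up to 2 respiratory chain genes and 1 ribosomal protein gene were called. Limits of 5 and 50 counts gave 9 genes switched off in clone 1, 4 of them off in clone 1 alone, and 2 switched on in clone 1 alone.

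Signs turned only for genes that were not called: POU5F1 to −0.01 without clone 1 replicate 1, TDGF1 to 0.01 with at least 10 counts in every library, and KRT7, ZNF788P and ZNF136, the last to 0.00 with DESeq2 and −0.01 with upper-quartile scaling. With 1 library left out, TDGF1 ranged from −0.07 to 0.05, KRT7 from −0.31 to 0.16, ZNF788P from −0.15 to 0.12 and ZNF136 from −0.13 to 0.17. Of the named genes, 25 lost a call against WT in at least 1 alternative, by the construction of the alternative (fewer libraries or genes) or for a cause that was not tested, and no alternative fit of clone 1 against WT gave a called gene the other sign.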
